A study of Mus musculus with 6 samples.

Results

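The blood vessels of the mouse retina were followed through 37 genes of vascular endothelial and mural cells in retinas lacking the transcription factor Onecut2 (OC2-KO) and in retinas of wildtype littermates (OC2-WT). The genes were taken from a fixed list of names, and each was represented by the probe set with the highest mean intensity over all arrays. A probe set is a group of short probes on the array that reads out 1 transcript. Of the 37 genes, 36 had a probe set that named no other gene, out of 18193 such genes on the array, and together they had 62 probe sets. Ly6c1 was the exception, since its probe set also names its neighbour Ly6c2, and it has no value here. The list held 12 genes of endothelial identity, 7 of the vessel barrier and its loss, 9 of angiogenic signalling, 5 of pericytes and 4 of contractile mural cells.

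The study hybridised total RNA of whole adult retina to Affymetrix mouse arrays, 3 for OC2-KO and 3 for OC2-WT, to look for changes in the mature retina after loss of the factor. OC2-KO mice carry null alleles in every cell, so a difference in a vascular gene need not arise in the vessels. The labels give the stage as adult without an age in days. Whether the 3 arrays of a genotype stand for 3 different mice is not stated, and the p-values below cover the scatter among these 6 arrays, technical or not. In RNA of a whole tissue, fewer cells of a type and less RNA per cell cannot be told apart.

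Retinal endothelial cells form a tight barrier in which the claudin encoded by Cldn5 and occludin seal the junctions, transporters such as Slc2a1 and Slco1a4 carry glucose and organic anions, and Plvap, the diaphragm protein of fenestrae and vesicles, is normally silent. Vessels sprout under the ligand Vegfa and its receptors and are held stable by angiopoietin 1 acting on the receptor Tek. Pericytes, drawn in by Pdgfb from the endothelium, wrap the capillaries, and smooth muscle cells with a contractile apparatus wrap the arterioles.

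Across the arrays, the median intensity ran from 98.2 to 110 in OC2-KO and from 94.9 to 110 in OC2-WT, and precision is limited by having 3 arrays of each genotype. Arrays with the same replicate number varied together and are called pairs below. Log2 Xist, a transcript of females, was 6.99, 13.77 and 7.16 in OC2-KO and 6.68, 13.70 and 14.53 in OC2-WT. Log2 Eif2s3y, a gene of the Y chromosome, was 8.88, -0.03 and 9.62 in OC2-KO and 9.52, 3.26 and 1.65 in OC2-WT. Pair 3 thus set male RNA in OC2-KO against female RNA in OC2-WT, while pairs 1 and 2 were each matched in sex. Sex and genotype cannot be told apart within pair 3, which gave the largest differences in Plvap (0.92) and Emcn (3.25). The excess of the 3′ over the 5′ probe set of Actb grows as RNA becomes less intact. On the log2 scale it was 1.41, 0.74 and 3.39 in OC2-KO and 1.11, 0.71 and 2.95 in OC2-WT. By this measure RNA was least intact in pair 3, in both genotypes. Both arrays of pair 3 also carry titles in another word order than the other arrays. Whether they were run apart from the others is not stated. The Onecut2 probes lie at the 3′ end of the gene, outside the part the study found lost. The study reported their signal as raised in OC2-KO, so a loss of signal cannot serve to check the genotype labels. Their level was not used here for such a check.

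Among the 36 measured genes, 25 were above 0 and 11 below 0 in their mean log2 difference between OC2-KO and OC2-WT. Their median difference was 0.26, beside 0.01 over all 18193 genes. In 2 genes, Plvap and Emcn, every OC2-KO array lay above every OC2-WT array, which 2.87% of all genes did, and in 1, Angpt1, every OC2-KO array lay below, which 2.25% of all genes did. In 10 genes the OC2-KO array was the higher one in 3 of 3 pairs, against 12.4% of all genes, and in 6 it was the lower one in 3 of 3 pairs, against 11.5%. Both counts of genes with 1 direction in all pairs came to a larger share of the 36 than over all genes, which is given as a description without a test.

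Only 17 of the 37 genes had a mean log2 intensity above 7 in either genotype, the study's threshold for expression, and entered the test. Endothelial markers that define the cell type were mostly under it. Pecam1, the platelet and endothelial adhesion molecule, averaged 4.40 ± 0.56 in OC2-KO and 3.58 ± 0.95 in OC2-WT (SD, n = 3 each). Cdh5, the cadherin of endothelial junctions, averaged 6.23 ± 0.36 in OC2-KO and 5.93 ± 0.52 in OC2-WT (SD, n = 3 each). The name of the list therefore rests, on these arrays, on Esam, Eng, Nos3, Ptprb, Kdr, Flt1, Cldn5 and Plvap among endothelial genes and on Pdgfrb, Rgs5 and Acta2 among mural genes. Several of the genes past the threshold are not particular to vessels. Slc2a1 is also strong in photoreceptors and pigment epithelium, Tjp1 at many epithelial and glial junctions, Vegfa in glia and Kdr in some retinal neurons.

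With limma across all probe sets, 1 of the 17 genes (Plvap) was higher in OC2-KO at an unadjusted p of 0.05, beside 0.732% of the 11065 genes past the threshold, and 0 were lower, beside 0.253%. None passed at an adjusted p of 0.05, and 0.0% of the 11065 genes did. In the limma fit that takes the pair as a block, 2 of the 17, Plvap and Cldn5, were higher at an unadjusted p of 0.05, beside 2.15% of all genes, and 1, Slco1a4, was lower, beside 1.38%. All 3 are in the class of the barrier and its loss, where Plvap stands for loss and Cldn5 and Slco1a4 for presence, so they share no direction. None passed after adjustment in that fit either, with an adjusted p of 0.999 each. The median log2 difference over the 17 was 0.12, beside -0.0048 over all genes past the threshold.

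**Figure D1:**
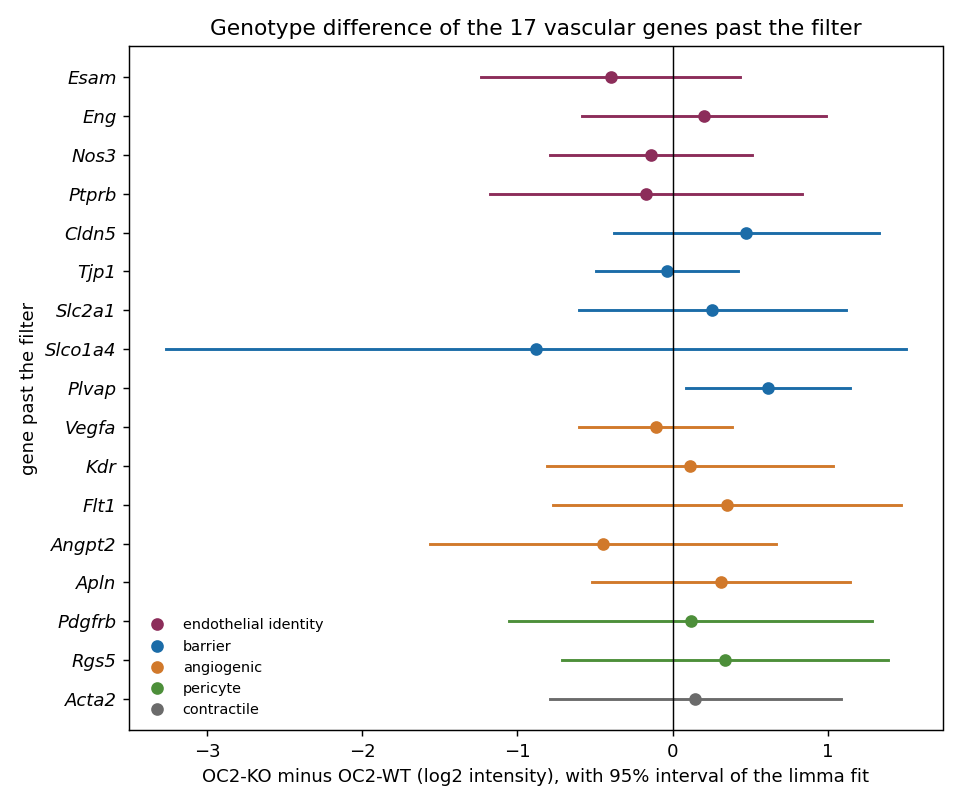
Difference in log2 intensity, OC2-KO minus OC2-WT, of the 17 vascular genes past the expression threshold, coloured by class. Points are means over 3 arrays against 3, and lines are 95% intervals of the limma fit. The interval of Plvap, from 0.08 to 1.14, is the only one that leaves out 0, and that of Slco1a4 is the widest, from -3.26 to 1.50.

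Plvap had log2 intensities of 9.04, 9.22 and 9.14 in OC2-KO replicates 1, 2 and 3, against 8.77, 8.56 and 8.22 in OC2-WT replicates 1, 2 and 3. All OC2-KO arrays lay above all OC2-WT arrays, and they lay closer together. The means were 9.13 ± 0.09 in OC2-KO and 8.52 ± 0.28 in OC2-WT (SD, n = 3 each), a log2 difference of 0.61 ± 0.23 (SE) or 1.53-fold (limma, unadjusted p = 0.0290, adjusted p = 1.00, and unadjusted p = 0.0192 with the pair as a block). The difference was 0.26 in pair 1, 0.66 in pair 2 and 0.92 in pair 3, higher in OC2-KO in 3 of 3. Its unadjusted p was 0.0784 without OC2-KO replicate 2, 0.0673 without OC2-KO replicate 3, 0.0678 without OC2-WT replicate 2 and 0.0922 without OC2-WT replicate 3, at differences of 0.46 to 0.63. It was 0.139 without pair 2 and 0.130 without pair 3, where 2 arrays of each genotype remained. The study listed this gene from the same arrays, so its call here is not independent evidence. Plvap is also made by the fenestrated vessels of the choroid, which lies behind the pigment epithelium. The summed intensity of 8 of 8 pigment cell markers was 13168 to 63980 in OC2-KO and 21843 to 78133 in OC2-WT, higher in OC2-KO in 1 of 3 pairs. The transthyretin gene Ttr made up most of that sum. Without Ttr, a choice made after seeing the data, the sum was 1763 to 5728 in OC2-KO and 3033 to 6748 in OC2-WT, again higher in OC2-KO in 1 of 3 pairs. Gene by gene, 6 of the 8 had a mean log2 difference above 0, but 0 were higher in 3 of 3 pairs, and Ttr and Rpe65 were lower in 3 of 3. None of the 8 was listed at 0, 5 passed the threshold, and the part of pigment and choroid tissue in the level of Plvap was not tested.

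The junction gene Cldn5 stood at 6.93, 7.54 and 7.95 in OC2-KO replicates 1, 2 and 3 and at 6.53, 6.93 and 7.54 in OC2-WT replicates 1, 2 and 3. The genotypes overlapped, yet the OC2-KO array was the higher one in each pair, by 0.40, 0.61 and 0.41. Its log2 difference was 0.47 ± 0.36 (SE), or 1.39-fold (limma, unadjusted p = 0.232). With the pair as a block the same difference had an SE of 0.15 and an unadjusted p of 0.0243, and with an intensity trend added to the block, an alternative chosen after seeing the data, p was 0.145.

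Slco1a4, the organic anion transporter of brain and retinal capillaries, stood at 5.92, 8.72 and 9.40 in OC2-KO replicates 1, 2 and 3 and at 7.35, 9.29 and 10.04 in OC2-WT replicates 1, 2 and 3. Its level differed more between pairs than between genotypes, with pair means that spanned 3.08 log2 units, but the OC2-KO array was the lower one in each pair, by -1.43, -0.57 and -0.64. The log2 difference was -0.88 ± 1.01 (SE; limma, unadjusted p = 0.412), and with the pair as a block its SE was 0.22 and its unadjusted p 0.00881. Without OC2-KO replicate 1, and with no block, the difference was 0.16 (unadjusted p = 0.840). Without both arrays of pair 1 it was -0.61 (limma, unadjusted p = 0.193). The blocked p-values of Cldn5 and Slco1a4 thus rest on how the arrays were paired, and the fit behind them has 2 residual degrees of freedom.

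**Figure D2:**
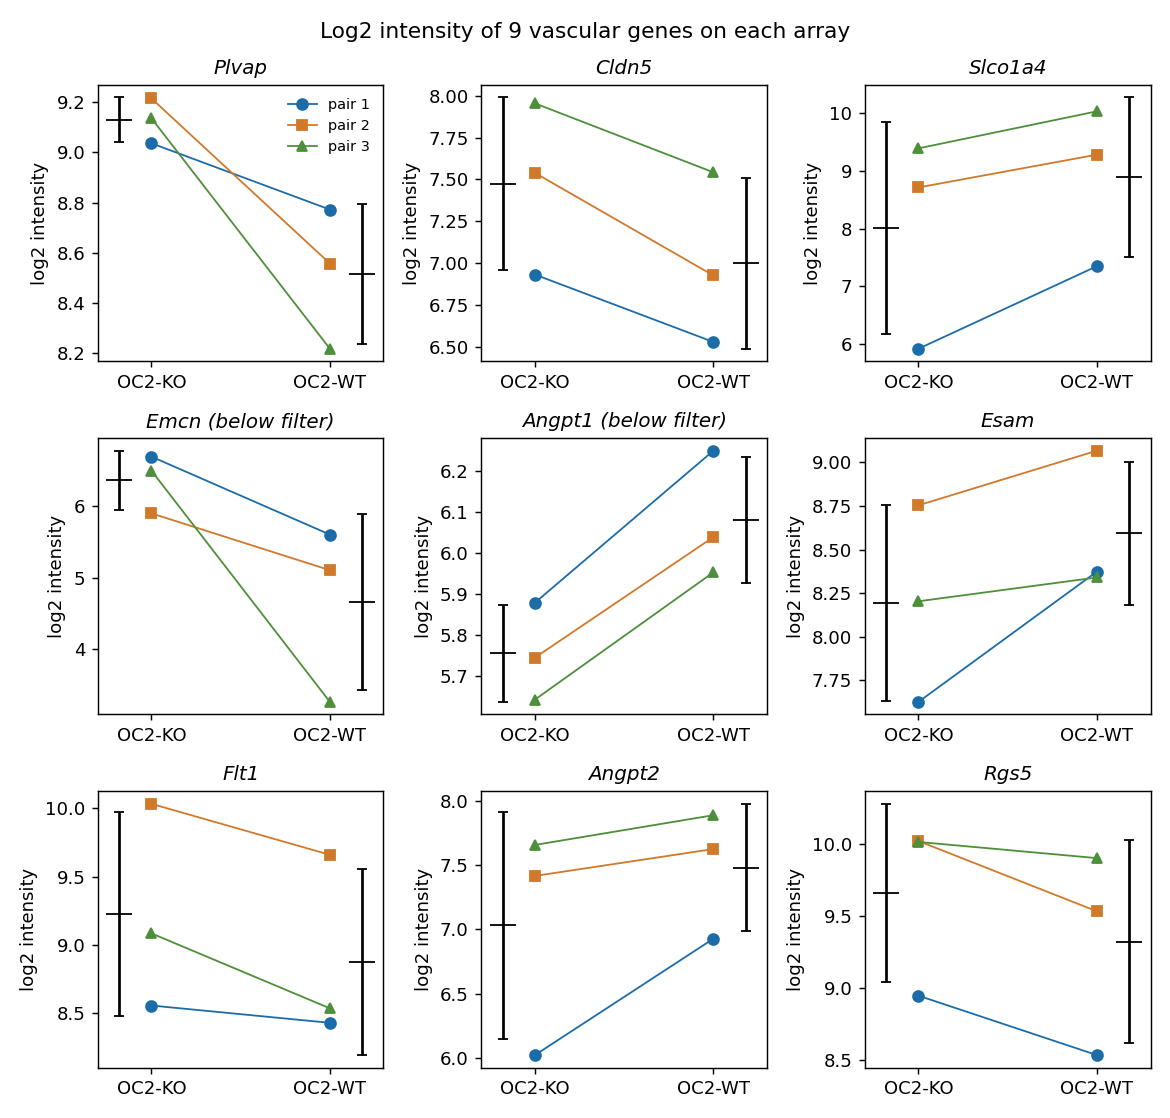
Log2 intensity of 9 vascular genes on each array, with OC2-KO left and OC2-WT right. Points are arrays, lines join arrays of the same replicate number, and horizontal and vertical black bars give the mean and SD of 3 arrays; each panel has its own axis. Plvap and Emcn are separated upward and Angpt1 downward in OC2-KO, whereas Cldn5 and Slco1a4 overlap between genotypes while each line runs in 1 direction.

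Of the other barrier genes, the glucose transporter gene Slc2a1 stood at 12.72, 12.40 and 13.50 in OC2-KO and at 12.36, 12.35 and 13.16 in OC2-WT, a log2 difference of 0.25 ± 0.37 (SE; limma, unadjusted p = 0.508). Its other 2 probe sets differed by 0.05 and 0.21. Tjp1, the junction scaffold also called ZO-1, averaged 11.27 ± 0.13 in OC2-KO and 11.30 ± 0.02 in OC2-WT (SD, n = 3 each). Its interval, from -0.49 to 0.42, was among the narrowest of the 17, and its pair means spanned only 0.11. Below the threshold, the junction gene Ocln averaged 6.63 ± 0.40 in OC2-KO and 6.48 ± 0.36 in OC2-WT (SD, n = 3 each), with a difference above 0 in 3 of 3 pairs. The efflux pump gene Abcb1a stood at 5.93, 6.71 and 5.35 in OC2-KO and at 5.18, 6.42 and 7.04 in OC2-WT, without a common direction. Over the 5 genes of this class past the threshold, Plvap included, the median difference was 0.25, with differences on either side of 0. Over all 7 it was 0.15.

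Promoters are shown for 3 genes with unlike patterns, Cldn5 (higher in 3 of 3 pairs), Slco1a4 (lower in 3 of 3 pairs) and Emcn (all OC2-KO arrays above all OC2-WT arrays), to set their sequence beside their values. Each runs 5′ to 3′ on the gene's own strand, from 250 bases before to 50 after the start in RefSeq on GRCm38.p6. They lie at chr16:18776597-18776896 on the plus strand for Cldn5, chr6:141856171-141856470 on the minus strand for Slco1a4 and chr3:137340828-137341127 on the plus strand for Emcn. Capitals mark matches, on either strand, to the core bases of ETS factors, GGAAG, and of SOX factors, ACAAT; both families hold regulators of endothelial genes.
Cldn5: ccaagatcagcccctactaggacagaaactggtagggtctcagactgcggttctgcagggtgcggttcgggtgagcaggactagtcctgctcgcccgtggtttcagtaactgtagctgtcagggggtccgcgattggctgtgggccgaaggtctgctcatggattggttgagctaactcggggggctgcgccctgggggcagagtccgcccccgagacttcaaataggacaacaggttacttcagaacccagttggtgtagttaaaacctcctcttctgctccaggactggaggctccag
Slco1a4: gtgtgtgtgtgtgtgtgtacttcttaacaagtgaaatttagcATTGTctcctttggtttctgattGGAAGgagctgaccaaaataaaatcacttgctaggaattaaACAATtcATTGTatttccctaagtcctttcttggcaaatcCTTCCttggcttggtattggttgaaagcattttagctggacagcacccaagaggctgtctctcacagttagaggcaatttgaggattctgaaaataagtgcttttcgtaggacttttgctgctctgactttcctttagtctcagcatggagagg
Emcn: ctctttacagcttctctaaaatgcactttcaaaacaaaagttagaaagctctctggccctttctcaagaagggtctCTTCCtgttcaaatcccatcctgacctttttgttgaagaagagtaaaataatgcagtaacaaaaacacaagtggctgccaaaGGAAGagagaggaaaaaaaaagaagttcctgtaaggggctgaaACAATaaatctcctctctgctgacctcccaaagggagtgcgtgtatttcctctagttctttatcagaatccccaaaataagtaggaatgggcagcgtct
The Slco1a4 window held 2 ETS and 3 SOX matches and the Emcn window 2 ETS and 1 SOX match, whereas the Cldn5 window held neither. RefSeq promoters were found for 22 of the 37 genes, 25 in all. Of these 25, 17 held GGAAG, or 68.0% beside 71.4% of 32851 mouse promoters of the same length, and 8 held ACAAT, or 32.0% beside 31.0%. The TCF and LEF core CTTTGA, through which canonical Wnt signals reach barrier genes, was in 3 of the 25 and in 16.0% of all promoters. The Onecut core ATTGAT was in 0 of the 25 and in 7.54% of all promoters. These letters were chosen after the values were known and were searched on both strands, and in these promoters no match of one motif overlapped a match of another. A match is a description and not a binding site.

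Genes of endothelial identity past the threshold had a median difference of -0.16 over 4 genes. Over all 11 measured genes of the class the median was 0.25, with 7 above 0 and 4 below, so its sign depended on the threshold. Esam, an adhesion molecule of endothelial junctions, stood at 7.63, 8.75 and 8.20 in OC2-KO replicates 1, 2 and 3 and at 8.37, 9.07 and 8.34 in OC2-WT replicates 1, 2 and 3. The OC2-KO array was the lower one in each pair, by -0.75, -0.31 and -0.14, and the genotypes overlapped. The log2 difference was -0.40 ± 0.35 (SE; limma, unadjusted p = 0.295, and 0.0776 with the pair as a block). Eng, the endoglin co-receptor for BMP9, stood at 7.71, 6.78 and 7.31 in OC2-KO and at 7.33, 7.31 and 6.56 in OC2-WT, with a difference of 0.20 ± 0.33 (SE; limma, unadjusted p = 0.563) and no common direction over the pairs. The phosphatase gene Ptprb, which restrains Tek signalling, differed by -0.17 and the nitric oxide synthase gene Nos3 by -0.14. In Ptprb the OC2-KO array was the lower one in 3 of 3 pairs, by no more than -0.32.

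Emcn, the endomucin of capillary and venous endothelium, was the only gene of endothelial identity whose genotypes did not overlap. It stood below the threshold, at 6.70, 5.90 and 6.50 in OC2-KO replicates 1, 2 and 3, against 5.60, 5.11 and 3.26 in OC2-WT replicates 1, 2 and 3. The difference was 1.71, or 3.28-fold. It came to 1.09 in pair 1, 0.80 in pair 2 and 3.25 in pair 3, so that OC2-WT replicate 3 alone set much of its size. When the threshold was dropped, limma gave an interval from 0.07 to 3.36 (unadjusted p = 0.0436, adjusted p = 1.00), in a fit that placed 1.45% of all genes higher in OC2-KO at this p and gave Plvap an unadjusted p of 0.0709. The separation of Emcn was lost when log2 values under 6 were set to 6, and its probe set was left out when only plain-suffix probe sets were used. The fold of so dim a probe set is uncertain. The remaining dim genes of endothelial identity, the adhesive glycoprotein gene Vwf, the guidance receptor gene Robo4 and the transcription factor genes Sox17 and Sox18, had mean log2 levels of 5.37, 5.65, 6.14 and 5.44 in OC2-KO and 5.11, 5.20, 5.45 and 5.97 in OC2-WT. All 4 changed direction between pairs.

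**Figure D3:**
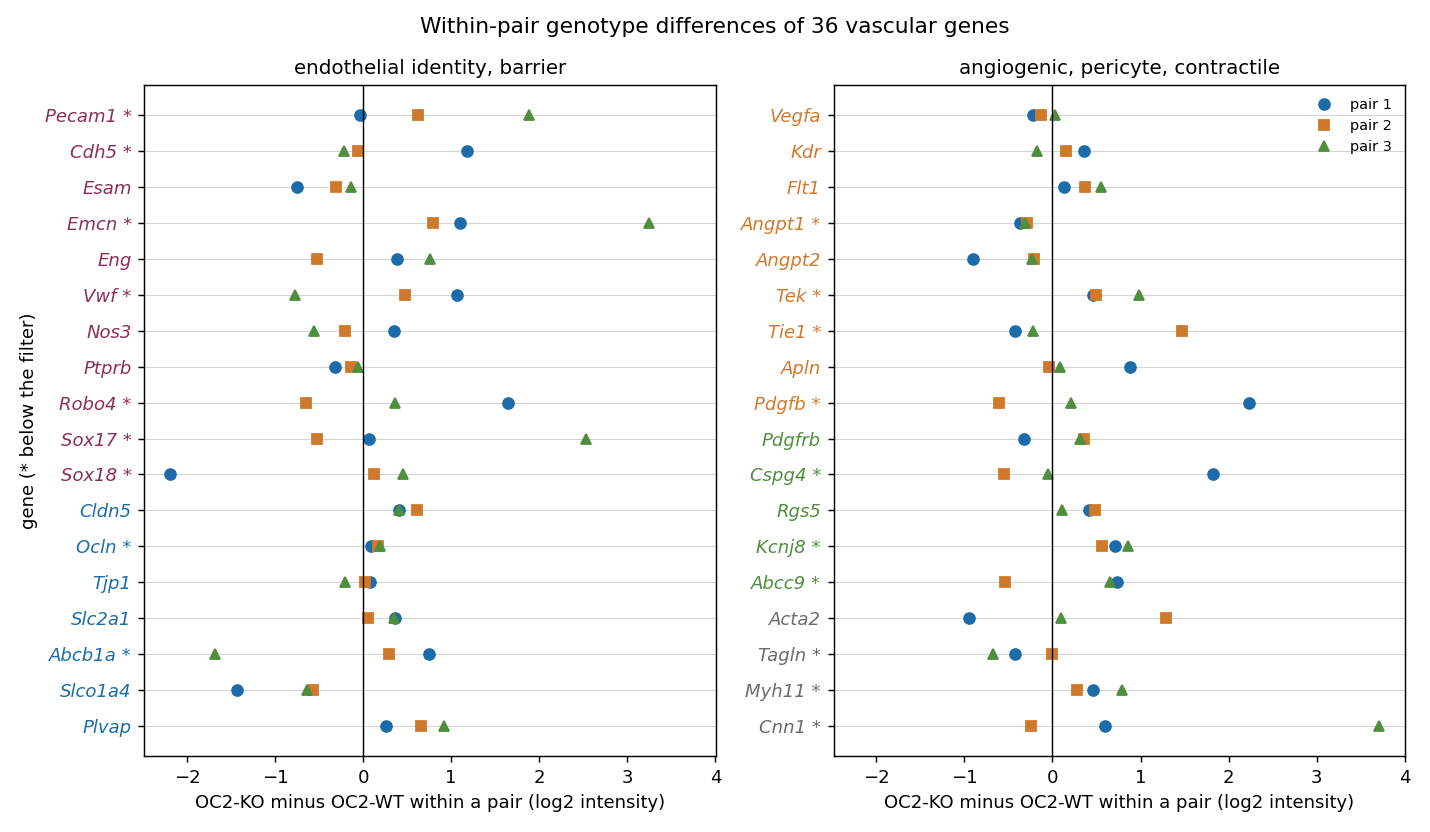
Difference in log2 intensity, OC2-KO minus OC2-WT, within each pair of arrays for the 36 vascular genes with a value, genes coloured by class and an asterisk marking those below the threshold. Points of all 3 pairs lie right of 0 in 10 genes, Plvap and Cldn5 among them, and left of 0 in 6 genes, Esam, Slco1a4, Angpt1, Angpt2, Ptprb and Tagln.

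In angiogenic signalling, the ligand Vegfa and its main receptor gene Kdr were not called. Vegfa averaged 9.77 ± 0.08 in OC2-KO and 9.88 ± 0.21 in OC2-WT (SD, n = 3 each), with an interval of the log2 difference from -0.60 to 0.38, and its other probe set past the threshold differed by -0.41. Kdr averaged 10.46 ± 0.59 in OC2-KO and 10.34 ± 0.54 in OC2-WT (SD, n = 3 each), with an interval from -0.81 to 1.04. Neither interval left out 0. Flt1, the decoy receptor of Vegfa, stood at 8.56, 10.03 and 9.08 in OC2-KO replicates 1, 2 and 3 and at 8.43, 9.66 and 8.53 in OC2-WT replicates 1, 2 and 3. The difference was 0.35 ± 0.48 (SE; limma, unadjusted p = 0.485, and 0.0837 with the pair as a block). It was above 0 in 3 of 3 pairs on the brightest probe set, but the other 3 probe sets of Flt1 differed by -0.87 to -0.07, so the probe sets disagreed in direction.

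The 2 angiopoietins were both below 0. Angpt2, which antagonises Tek and loosens vessels, stood at 6.02, 7.42 and 7.66 in OC2-KO replicates 1, 2 and 3 and at 6.93, 7.63 and 7.89 in OC2-WT replicates 1, 2 and 3. The OC2-KO array was the lower one in each pair, most in pair 1 (-0.91), and the log2 difference was -0.45 ± 0.47 (SE; limma, unadjusted p = 0.375, and 0.0724 with the pair as a block). The study found a marked loss of horizontal cells, a type of retinal neuron, in OC2-KO retinas. Markers of horizontal cells were not read here, and the part of cells outside the vessels in the level of Angpt2 was not tested. Angpt1, the stabilising ligand of Tek, was below the threshold at 5.88, 5.74 and 5.64 in OC2-KO and at 6.25, 6.04 and 5.95 in OC2-WT. Its genotypes did not overlap, with differences of -0.37, -0.29 and -0.31 in pairs 1, 2 and 3. However, its other probe set differed by 0.01, and without the threshold limma gave an unadjusted p of 0.254. The separation of Angpt1 was lost under median centring, under quantile normalisation and with a floor of 6.

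The receptor Tek, also below the threshold, stood at 6.12, 7.15 and 6.52 in OC2-KO and at 5.66, 6.65 and 5.54 in OC2-WT, a difference of 0.65 that was above 0 in 3 of 3 pairs. Of Tek and its ligands only Angpt2 was bright enough to be tested, and it was not called. The peptide ligand gene Apln, made by tip cells, averaged 7.01 ± 0.19 in OC2-KO and 6.70 ± 0.67 in OC2-WT (SD, n = 3 each). Nearly all of its difference came from pair 1, at 0.89. Pdgfb, the endothelial ligand that draws in pericytes, averaged 5.71 ± 0.28 in OC2-KO and 5.10 ± 1.64 in OC2-WT (SD, n = 3 each), and the orphan receptor gene Tie1 averaged 3.41 ± 1.92 in OC2-KO and 3.13 ± 1.68 in OC2-WT (SD, n = 3 each). Both were dim and without a common direction. The 5 angiogenic genes past the threshold had a median difference of 0.11, with 3 above 0 and 2 below. Apln, 1 of the 3 above 0, passed only through its OC2-KO mean, so this median leans on the genotype where Apln was higher.

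All 5 pericyte genes had a mean difference above 0, between 0.12 and 0.71, with a median of 0.34. Only Pdgfrb and Rgs5 were bright enough to be tested, and neither was called. Rgs5, a regulator of G protein signalling and a marker of pericytes, stood at 8.95, 10.02 and 10.02 in OC2-KO replicates 1, 2 and 3 and at 8.54, 9.53 and 9.90 in OC2-WT replicates 1, 2 and 3. The difference was 0.34 ± 0.45 (SE; limma, unadjusted p = 0.473, and 0.0897 with the pair as a block), above 0 in each pair, and its other 3 probe sets differed by 0.11 to 0.74. All 4 probe sets of Rgs5 were thus above 0, though the genotypes overlapped on each. Kcnj8, the pore of the pericyte potassium channel, stood below the threshold at 7.09, 6.18 and 7.48 in OC2-KO and at 6.39, 5.62 and 6.61 in OC2-WT. It was above 0 in 3 of 3 pairs, by 0.71, 0.56 and 0.86. Without OC2-KO replicate 2, its lowest OC2-KO array, it passed the threshold through its OC2-KO mean alone. It was then called higher, with a difference of 1.08 (limma, unadjusted p = 0.0251, adjusted p = 0.999), while its lowest OC2-WT array stayed in. The call followed from the choice of array left out, so it is no evidence of a rise. Kcnj8 was not called when both arrays of pair 2 were left out. Its partner subunit gene Abcc9 differed by 0.28 on the brightest probe set and by -1.39 to 0.62 on the other 2. Pdgfrb, the receptor for Pdgfb, differed by 0.12 ± 0.50 (SE), with pair 1 below 0 and pairs 2 and 3 above. Cspg4, the NG2 proteoglycan, stood at 7.46, 5.93 and 6.55 in OC2-KO and at 5.64, 6.48 and 6.61 in OC2-WT, so that its difference of 0.41 came from pair 1 alone.

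Contractile genes of mural cells were the dimmest class, with 1 of 4 past the threshold. Acta2, smooth muscle actin, stood at 7.76, 8.79 and 8.02 in OC2-KO replicates 1, 2 and 3 and at 8.70, 7.50 and 7.92 in OC2-WT replicates 1, 2 and 3. Its differences of -0.95, 1.29 and 0.09 in pairs 1, 2 and 3 had no common direction (mean 0.15 ± 0.40, SE; limma, unadjusted p = 0.722). The actin-binding protein gene Tagln averaged 4.39 ± 1.70 in OC2-KO and 4.76 ± 1.56 in OC2-WT, and the smooth muscle myosin gene Myh11 averaged 4.15 ± 1.95 in OC2-KO and 3.65 ± 2.16 in OC2-WT (SD, n = 3 each). Calponin, encoded by Cnn1, stood at 1.73, 0.02 and 5.94 in OC2-KO and at 1.13, 0.26 and 2.23 in OC2-WT, with replicate 3 the highest array of each genotype. In Myh11 the OC2-KO array was the higher one in each pair, by 0.46, 0.27 and 0.79, and in Tagln the lower one, by -0.43, -0.0068 and -0.67, while Cnn1 had no common direction. All 3 lay far under the threshold and were not tested.

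The spread between pairs was wide for the vascular genes. In 16 of the 17 past the threshold, or 94.1%, the means of the 3 pairs spanned more than the difference between genotypes, which held for 91.9% of all genes. The median span was 0.95 log2 units in the 17, beside 0.48 over all genes. The exception was Plvap, whose pair means spanned 0.23 against a genotype difference of 0.61.

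**Figure D4:**
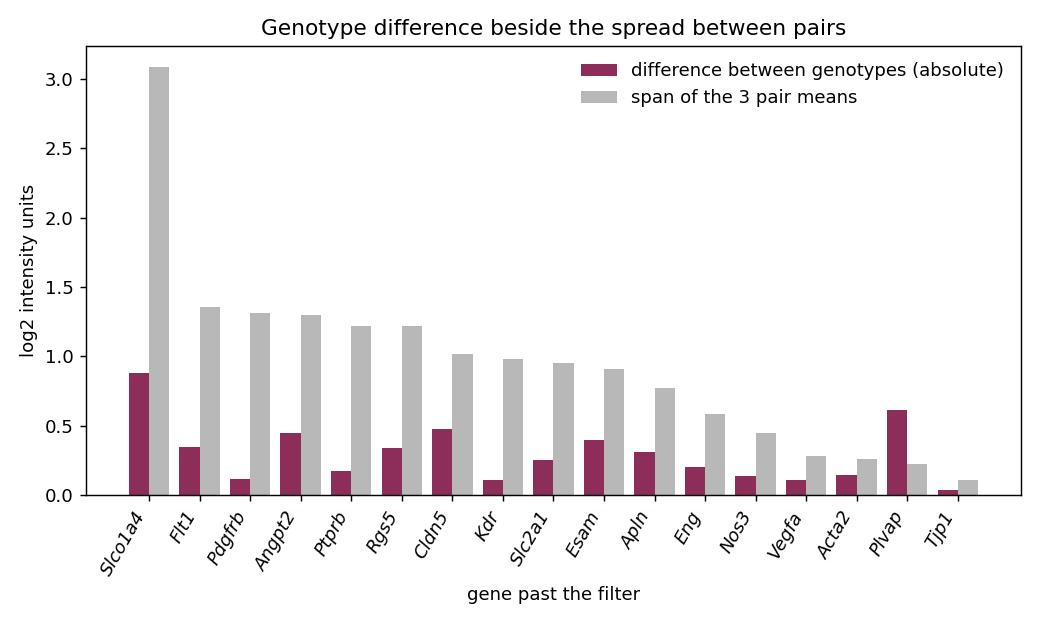
Absolute difference between OC2-KO and OC2-WT means (dark bars) beside the span of the 3 pair means (grey bars), both in log2 intensity units, for the 17 vascular genes past the threshold, in order of span. Plvap is the only gene whose dark bar exceeds the grey one, and Slco1a4 has the longest grey bar, at 3.08.

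Further genes of the pathways that build and maintain vessels were read from 7 lists of 81 genes, of which 80 had a value and 44 passed the threshold. At an unadjusted p of 0.05, 0 of the 44 were higher and 0 lower (limma), beside 0.732% and 0.253% of all genes, and with the pair as a block 1 was higher and 0 lower, beside 2.15% and 1.38%. These counts are near the shares over all genes. Their median difference was -0.0040, the same to within 0.01 as over all genes past the threshold. Of Norrin and Wnt signalling, which sets up the retinal barrier, 5 of 8 passed the threshold, and the smallest p-values belonged to Apcdd1 (-0.16), the ligand gene Ndp (-0.09) and Axin2 (-0.02). Of Notch and ephrin signalling, 6 of 9 passed the threshold, led by the target genes Nrarp (0.28), Hey2 (0.21) and Hey1 (-0.14), all as log2 differences. Among 7 of 12 further VEGF, TGF-beta and sprouting genes past the threshold, the receptor gene Flt4 differed by 0.30, its ligand gene Vegfc by -0.45 and the guidance receptor gene Unc5b by -0.26. These gene groups had log2 differences on both sides of 0 and no call in either fit.

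Other endothelial genes past the threshold numbered 4 of 12, with Egfl7 (0.32), Lyve1 (-0.35) and Podxl (0.09) having the smallest p-values. Barrier and transport genes numbered 7 of 12 measured, where the amino acid transporter gene Slc7a5 differed by 0.28, the lactate transporter gene Slc16a1 by 0.21 and the junction gene Cgn by 0.40. Cgn, which encodes cingulin, was the 1 gene called with the pair as a block (limma, unadjusted p = 0.0445), and in the fit without the block its unadjusted p was 0.401. Cingulin is also found at epithelial junctions. Further mural genes numbered 4 of 13, with differences of 0.36 in Mylk, -0.25 in Cald1 and 0.17 in Vtn. Vtn averaged 14.40 in OC2-KO and 14.23 in OC2-WT, far above Rgs5, the brightest pericyte gene, at 9.66 and 9.32. The part of other cells in the level of Vtn was not tested. Of hypoxia targets, 11 of 14 passed the threshold, and Egln1, an oxygen sensor, averaged 11.93 ± 0.10 in OC2-KO and 11.74 ± 0.03 in OC2-WT (SD, n = 3 each; limma, unadjusted p = 0.338) without overlap of the genotypes. Hif1a differed by 0.23 and Slc2a3 by -0.14, and the dim hypoxia target Car9 was the only other gene of the 80 without overlap, at 5.53 ± 0.49 in OC2-KO and 3.91 ± 0.69 in OC2-WT (SD, n = 3 each). Such separation upward in 2 of 80 genes is near the 2.87% over all genes. The hypoxia targets past the threshold had a median difference of -0.04.

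Markers of other cell types were read beside these results. The summed intensity of 8 of 8 microglia and macrophage genes was 3070 to 3997 in OC2-KO and 2336 to 2899 in OC2-WT. It was without overlap and higher in OC2-KO in 3 of 3 pairs. Plvap and Emcn were separated in the same way, but so were 2.87% of all genes. Of the 5 genes of that list past the threshold, 1 was called higher without a block, beside 0.732% of all genes. It was Tyrobp, a signalling adaptor of these cells, with a log2 difference of 1.05 (limma, unadjusted p = 0.00945). With the pair as a block 3 were called higher, beside 2.15%. These were Tyrobp, Tmem119 and Ctss (limma, unadjusted p = 0.0124, 0.0254 and 0.0386), and none passed after adjustment. Tmem119 and Ctss differed by 0.84 and 0.46. Gfap, which glia make under stress, differed by 1.40 (limma, unadjusted p = 0.0247), while 4 of 5 astrocyte genes summed to 2879 to 5878 in OC2-KO and 2967 to 4596 in OC2-WT. None of the 8 microglia genes was listed at 0, and the part of these cells in the levels of Plvap and Emcn was not tested.

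Fibroblast markers, 6 of 6, summed to 950 to 1238 in OC2-KO and 803 to 1131 in OC2-WT, higher in OC2-KO in 2 of 3 pairs, and 4 of the 6 had a mean log2 difference above 0. The collagen gene Col1a2 differed by 0.56 and was the 1 gene of the 6 above 0 in 3 of 3 pairs, as Rgs5 and Kcnj8 were. It was called with the pair as a block (limma, unadjusted p = 0.0324) and not without it (limma, unadjusted p = 0.263). The collagen genes Col1a1 and Col3a1 differed by -0.19 and -0.13. The part of fibroblasts in the pericyte genes was not tested. Striated muscle markers, 6 of 6, summed to 356 to 682 in OC2-KO and 352 to 572 in OC2-WT. The 3 measured erythrocyte markers, Hba-a1, Alas2 and Slc4a1, all lay below the threshold. Hba-a1 was read from 1 dim probe set, since its other probe sets also name a neighbouring haemoglobin gene, so red cell RNA was poorly measured here. Lens markers, 5 of 5, summed to 22572 to 37172 in OC2-KO and 3784 to 43489 in OC2-WT, with OC2-WT replicate 3 the lowest array, the same array that was lowest in Plvap and Emcn. The part of lens tissue in those genes was not tested. The 5 measured photoreceptor markers and the 6 markers of Muller glia all passed the threshold, with median differences of 0.11 and -0.07.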

How the data were processed

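Total RNA of adult retina was amplified, biotin-labelled and hybridised by the authors to Affymetrix mouse expression arrays, with 3 arrays for OC2-KO and 3 for OC2-WT. The deposited values are linear intensities per probe set, made by the authors with MAS5 background adjustment and normalization, and on each array their mean after trimming 2% from each end was 500. This scaling hides any shift common to all transcripts. Scanner files and detection calls were not used here.

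Groups were taken from the genotype in the labels. Log2 was taken of 45101 probe sets, 64 controls were left out, and probe sets with a mean log2 intensity above 7 in either genotype were tested (21176). Platform symbols were used, 34945 probe sets having 1 symbol, 932 several and 9160 none. By gene number 34741 matched a RefSeq table of assembly GRCm38.p6, with 0 symbols changed. OC2-KO minus OC2-WT was tested in limma 3.58.1 (R 4.3.3; lmFit, then eBayes), two-sided, with Benjamini-Hochberg adjustment over all probe sets tested and 4 residual degrees of freedom. The study's methods used a t-test, which was run as an alternative.

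Replicate numbers in the titles were checked as pairs. After each genotype mean was taken off, arrays sharing a number correlated at 0.576, 0.590 and 0.585, and arrays with unlike numbers at -0.429 to -0.135. Taking off a mean of 3 arrays itself pushes the unlike-number values below 0 where the same-number values are positive, so they are not separate support. The numbers were taken as pairs on the positive same-number values, and not on a stated litter. The members, classes and lists were chosen with earlier results of these data known. Every member is named; values on each array are given for members called or without overlap and for the largest difference in each direction in each class, and up to 3 genes of each other list by smallest p. Tek, Kcnj8, Cspg4, Cnn1, Slc2a1 and the motifs were chosen for closer description after their values were seen. Alternatives were no threshold, a threshold of 8, a floor of 6, median centring, quantile normalization, an intensity trend, array weights, the replicate block, both forms of the t-test, other choices of probe set, and leaving out each array or pair 3. Leaving out pairs 1 and 2 and the block with a trend were added after seeing the data. The fits were tested on simulated data. Some genes of the other lists are not reported here.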

Additional observations from a re-analysis of the deposited data

How the results depend on the processing

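Of 360 combinations of a tested gene and an alternative, 320 kept their direction and their side of 0.05, 8 lost a call, all of Plvap, 3 gained one and 29 changed sign. Plvap kept its direction in all 22 alternatives, at 0.46 to 0.79, and an unadjusted p under 0.05 in 14 of them; p was 0.0517 in the t-test with unequal variances, which left 0 genes called higher, and 0.0709 without the threshold. With the replicate block 2 genes were called higher and 1 lower, with an intensity trend added 1 was called lower, and the block changed no other call. Separation of the genotypes was seen upward in 1 gene (Plvap, no longer Emcn) with a floor of 6 or with plain-suffix probe sets only, and downward in 0 genes with the floor of 6, median centring or quantile normalization. It was not run for averaged probe sets. Without the threshold the median of the endothelial identity class was 0.25 against -0.16. With array weights Eng (-0.00087), Kdr (-0.23) and Flt1 (-0.034) changed sign, as did Flt1 (-0.11) when its probe sets were averaged. When arrays were left out, the count called higher ran from 0 to 1, the 1 being Kcnj8 and not Plvap without OC2-KO replicate 2. Separated genes numbered 2 to 7 upward and 1 to 2 downward in these settings. Separation is easier to reach with fewer arrays, and no share over all genes is given for these settings, so the counts are not read as a result. The class medians ran from -0.34 to 0.024 for endothelial identity, 0.035 to 0.46 for the barrier, -0.16 to 0.42 for angiogenic genes, -0.13 to 0.67 for pericytes and -0.43 to 0.69 for Acta2, the only contractile gene tested. Without an array or pair, 13 genes changed sign. With a whole pair left out, those that did so were Kdr (pair 1), Pdgfrb and Acta2 (pair 2), and Eng, Nos3 and Tjp1 (pair 3). The others changed sign only where 1 array was left out and its partner stayed in. Of the whole pairs, Apln was tested only without pair 1. Eng ran from -0.074 to 0.57, Nos3 from -0.38 to 0.11, Ptprb from -0.48 to 0.21, Tjp1 from -0.091 to 0.048, Slc2a1 from -0.058 to 0.52, Slco1a4 from -1.65 to 0.16, Kdr from -0.22 to 0.42, Flt1 from -0.055 to 0.74, Angpt2 from -0.76 to 0.056, Apln from -0.076 to 0.51, Pdgfrb from -0.20 to 0.65 and Rgs5 from -0.056 to 0.69. Acta2 is given above. The cause was not tested. Dim probe sets near background limit 19 of the 36 measured genes.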
